A study of Rattus norvegicus with 8 samples.

Results

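Molecular chaperones of the rat testis are described here through the probe sets of heat shock proteins, J proteins and subunits of the cytosolic chaperonin. A probe set was taken when its only symbol in the annotation of the array began with Hspa, Hspb, Hspd, Hspe, Hsph, Hsp90, Dnaja, Dnajb, Dnajc or Cct and a digit, and when its deposited signal reached 50 on at least 2 arrays. For Hsp90 the digits are part of the family name, so Hsp90ab1 and Hsp90b1 were kept. Of 31099 probe sets on the array, 106 carried such a symbol (69 genes), and 91 (65 genes) reached the minimum. All 91 were tested. The 15 that did not reach it were all the probe sets of Hspb2, Dnajc22, Hspa12a and Dnajc6, and further probe sets of genes that kept another one. The second-highest deposited signal was 55.5 for Hspa1l and 59.6 for Hspb8 just inside the minimum, and 49.5 for Hspa12a and 48.4 for Dnajc22 just outside. Probe sets with several symbols, among them those naming Hspa1b, Hspa8 or Hsp90aa1, were not analysed here.

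Hsp70 proteins bind unfolded stretches of other proteins and release them with each cycle of ATP hydrolysis. J proteins deliver clients to Hsp70 and start that cycle, and Hsp90 acts on partly folded clients later. Chaperonins are hollow double rings that enclose a client: Hspd1 with its lid Hspe1 in mitochondria, and the Cct subunits, which fold actin and tubulin, in the cytosol. Heat shock factors raise many of these genes under stress, and the testis also makes germ-cell forms, some of them in meiotic cells and spermatids.

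Total RNA of whole testes of Sprague-Dawley rats, labelled as adult, was measured on 8 one-colour oligonucleotide arrays. Control testes came from untreated rats (3 arrays), and the treated rats had received a single dose of Adjudin, which loosens germ cells from Sertoli cells, of 50 mg/kg body weight by gavage 8 h (2 arrays) or 4 d (3 arrays) earlier. No vehicle group is named. The labels do not tie each array to its own rat, and the p-values therefore reflect the scatter of these samples, part of which may be technical. The series title names the loss of germ cells from the testis as the subject.

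The settings of the arrays placed them in 3 hybridisation runs. Control 1, 8 h 1 and 4 d 1 made up run 1. Run 2 had no 8 h array, only control 2 and 4 d 2, and the remaining arrays (control 3, 8 h 2, 4 d 3) formed run 3. Run 2 used another version of the fluidics protocol (4 against 5), and its settings name mouse as the sample type where the labels name rat. Within groups, the correlation of log2 signals between arrays was 0.954 to 0.978, and the pairs with a run 2 array lay at 0.956 to 0.978. The control arrays averaged scaled signals of 43729.9 for Prm1 and 32294.0 for Tnp1, which are made in spermatids, 3599.6 for Cyp17a1 of Leydig cells and 341 for Dmrt1, a Sertoli and germ cell gene. Signals were scaled to a trimmed mean of 500 per array, and 100 of that scale was reached by 51.6% to 59.0% of probe sets per array, controls aside. The number of arrays limits the precision.

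At 4 d a few chaperone genes had moved, in both directions, with a median difference near 0. Of the 91 probe sets, 5 rose (Hspe1, Hspd1, Dnajc19, and 1 each of Dnajc5 and Hspb8) and 4 fell (both of Dnaja4, Dnajc18 and Dnajc30) in limma with Benjamini-Hochberg adjustment over all 19785 probe sets tested. The Hspb8 probe set reached the minimum only on 4 d arrays, so it entered the test through the group where it is high and its rise is no support. The 5 and 4 are 5.49% and 4.40% of the members, where 6.16% of all probe sets tested rose and 3.73% fell, so the members' shares lay near the background. Their median log2 difference was 0.00, against 0.04 over all probe sets. When run entered the model as a block, there were 8 rises and 14 falls (8.79% and 15.4% of the members, against a background of 13.3% and 9.19%), and all 9 calls made without it were among them. At an unadjusted p under 0.05 there were 17 members of 91, against 22.7% of all probe sets. Every 4 d array lay above every control array in 9 members and below in 11, where 17.5% and 11.8% of all probe sets did so. With the arrays set to equal medians 0 members rose and 1 fell, the brighter Dnaja4 probe set (background 3.75% and 2.09%), and with quantile normalization 3 rose and 4 fell (background 5.77% and 5.04%). Without run 2 only Hspd1 rose and 0 fell (background 1.7% and 0.829%). In RNA of a whole testis, fewer cells of a type and less RNA per cell cannot be told apart.

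**Figure D1:**
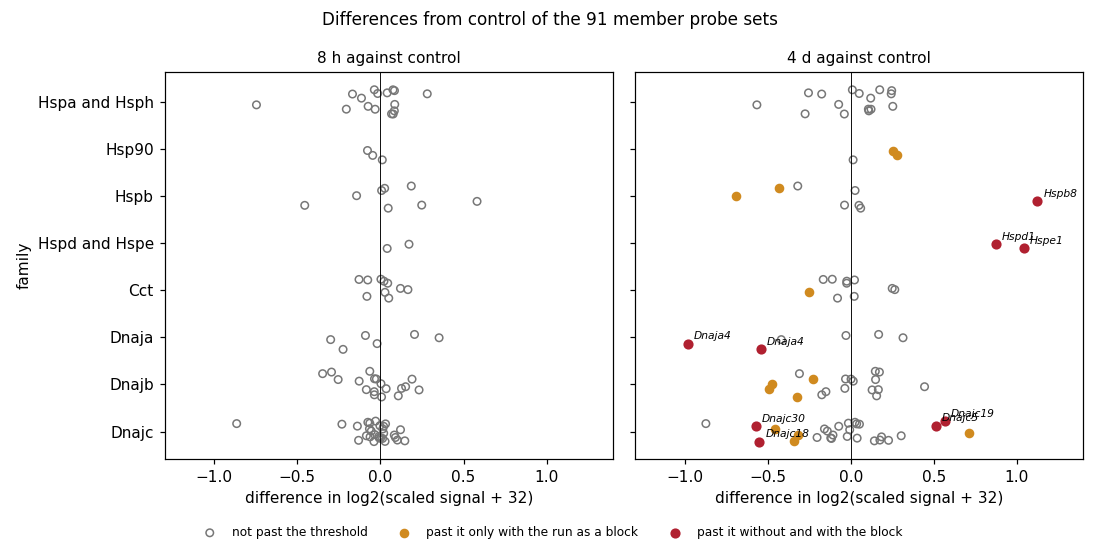
Differences from control in log2(scaled signal + 32) for the 91 member probe sets (x axis) by family (y axis), at 8 h on the left and at 4 d on the right; 1 point is 1 probe set, spread at random within its family. No point is coloured at 8 h; at 4 d the filled red points are the 5 that rose and the 4 that fell without and with the run block, and orange points passed only with the block.

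The mitochondrial chaperonin rose as a pair. Hspd1 is the ring subunit that folds proteins imported into the mitochondrial matrix, and Hspe1 is its lid. The 2 genes lie head to head in the RefSeq annotation of the rat genome (build GRCr8), with starts 290 bases apart, so that the promoter windows used here, from 250 bases before to 50 after each start, overlap by 211 bases. That shared stretch is printed because both members with the clearest rise lie on its 2 sides. It runs from 250 to 40 bases before the Hspe1 start, and capitals mark 2 overlapping matches to a heat shock element, the binding sequence of heat shock factors.
Hspe1 and Hspd1, chr9:64084077-64084287, plus strand: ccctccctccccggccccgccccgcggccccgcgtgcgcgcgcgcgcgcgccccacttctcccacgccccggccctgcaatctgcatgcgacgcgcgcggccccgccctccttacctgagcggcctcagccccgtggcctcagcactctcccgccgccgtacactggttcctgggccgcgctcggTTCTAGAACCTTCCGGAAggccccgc
The element searched was 3 alternating GAA and TTC units with 2 bases of any kind between neighbours, beginning with either unit, on both strands. It was in the windows of 5 of the 57 member genes that had a RefSeq promoter entry (8.77%) and in 0.798% of all 33469 promoters of the table. Hspd1 and Hspe1 count separately among these, although their matches are the same bases read from either side. A match describes the letters and not a site in use.

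Hspd1 had scaled signals of 1662, 1519 and 1819 in the controls, 1751 and 2011 at 8 h, and 3144, 2504 and 3681 at 4 d. Every array at 4 d lay above every other array, while the 8 h arrays overlapped the controls. The rise over control was 1.83-fold (log2 0.87, SE 0.16, adjusted p = 0.00766, and 0.000103 with the run as a block), with log2 differences of 0.91, 0.71 and 1.00 in the 3 runs. It passed without each of the 8 arrays in turn, and did not pass with the arrays set to equal medians (adjusted p = 0.0841).

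Hspe1 had 1876, 1743 and 2781 in the controls, 1766 and 2611 at 8 h, and 3885, 3416 and 6107 at 4 d. The run 3 arrays were the highest of their groups, and the 4 d arrays again lay above all others. Hspe1 rose 2.06-fold (log2 1.04, SE 0.25, adjusted p = 0.0292, and 1.92e-05 with the block), by a log2 of 1.04, 0.96 and 1.13 in the 3 runs. Its call without a block was lost without control 1, control 2, 4 d 1 or 4 d 3 (adjusted p of 0.0705 to 0.104) and without run 2 (0.115).

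Other mitochondrial members went different ways at 4 d. Of 8 measured genes of the mitochondrial list, 3 rose (Hspd1, Hspe1 and Dnajc19), 1 fell (Dnajc30) and 4 did not pass, where 6.16% of all probe sets rose and 3.73% fell. Dnajc19 belongs to the import motor of the inner membrane. It had 714, 769 and 639 in the controls, 694 and 687 at 8 h and 1115, 932 and 1145 at 4 d, with no overlap between 4 d and the other groups. The rise was 1.48-fold (log2 0.57, SE 0.14, adjusted p = 0.0294, and 0.0088 with the block), smaller in run 2 (0.27) than in runs 1 and 3 (0.62 and 0.81). It did not pass without any 1 of the controls, 4 d 1 or 4 d 3 (adjusted p of 0.0557 to 0.125), without run 2 (0.0786) or with quantile normalization (0.0644).

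Dnajc30, a J protein of the inner membrane linked to ATP synthesis, was lower. Its signals were 1103, 1439 and 1451 in the controls, 1198 and 1195 at 8 h and 811, 984 and 851 at 4 d, and all 4 d arrays lay below all others. It fell by 0.57 on the log2 scale (SE 0.15, adjusted p = 0.0369, and 0.00426 with the block). Without control 1 the call was kept, and without each other array in turn it was lost (adjusted p of 0.0524 to 0.149), as it was without run 2 (0.164). The 4 mitochondrial genes that did not pass were Hspa9, Dnaja3, Dnajc11 and Dnajc15. Hspa9, the mitochondrial Hsp70, had 3607, 4099 and 1807 in the controls, 3721 and 2047 at 8 h and 4471, 4234 and 1816 at 4 d, where the run 3 arrays were the lowest in every group. Its log2 difference at 4 d was 0.12 with a 95% interval of -0.77 to 1.01. This interval holds a fall as large as that of Dnajc30 and a rise as large as that of Hspd1. Over the 4 probe sets of Hspa9 the differences ran from -0.17 to 0.25. Among 10 further genes of mitochondrial folding and proteolysis that are not members, 0 rose and 1 fell: Clpb, which pulls apart protein aggregates in mitochondria, fell by 1.21 on the log2 scale (SE 0.13, adjusted p = 0.000676). With the block, 0 rose and 3 fell. Over all probe sets 6.16% rose and 3.73% fell (13.3% and 9.19% with the block).

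**Figure D2:**
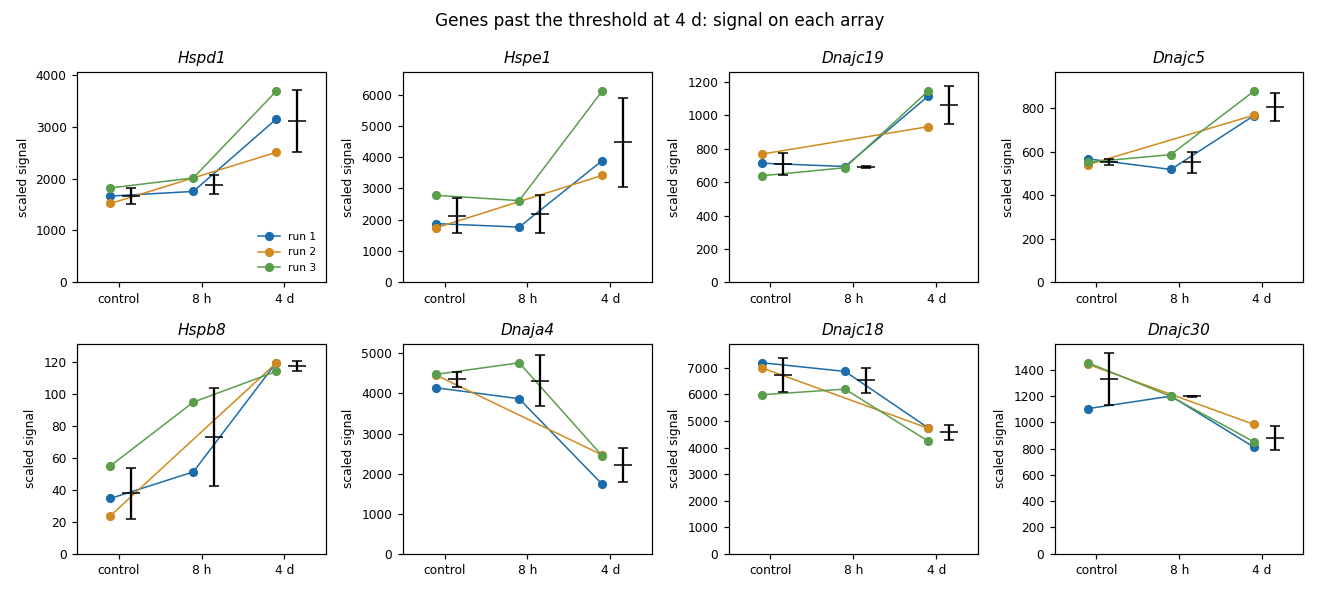
Scaled signal (y axis, linear, from 0) on each of the 8 arrays for 1 probe set each of the 8 genes past the threshold at 4 d; colours and lines join arrays of 1 hybridisation run, and the black bars beside the points are mean and SD of the group (n = 3, 2 and 3). Hspd1, Hspe1, Dnajc19, Dnajc5 and Hspb8 are higher at 4 d on every array than on any control array, and Dnaja4, Dnajc18 and Dnajc30 lower.

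The largest fall belonged to a cytosolic J protein. Dnaja4 works with Hsp70 in the cytosol. Its brighter probe set had 4142, 4456 and 4478 in the controls, 3869.5 and 4767 at 8 h and 1739, 2468 and 2450.4 at 4 d. The 4 d arrays stood well below all others, and 8 h and control overlapped. It fell by 0.98 on the log2 scale at 4 d, to 0.507 of the control level (SE 0.16, adjusted p = 0.00454, and 6.15e-05 with the block), with -1.24, -0.84 and -0.86 in the 3 runs. The call held without each array in turn and just missed the threshold without run 2 (adjusted p = 0.0501). The dimmer probe set gave 1071, 1001 and 1006, then 891 and 854, then 753, 689 and 646. Here the 8 h arrays lay between the other groups, with no overlap (log2 -0.23 at 8 h, unadjusted p = 0.136 in limma). At 4 d it fell by 0.54 (SE 0.12, adjusted p = 0.0225), a call lost without control 1, control 2 or any 1 of the 4 d arrays (0.0579 to 0.0765), without run 2 (0.161) and with equal medians.

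Dnajc18, also a J protein, fell. It had 7193, 6997 and 5990.4 in the controls, 6867 and 6200.4 at 8 h, and 4749, 4732 and 4246 at 4 d. All 4 d arrays lay below all others. The fall was 0.55 on the log2 scale (SE 0.12, adjusted p = 0.0187, and 0.000277 with the block), with -0.60, -0.56 and -0.49 in the 3 runs. Without the block it was lost without control 1, control 2 or any 1 of the 4 d arrays (adjusted p of 0.0524 to 0.0745) without run 2 (0.166) and with quantile normalization (0.124).

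The upstream stretch of Dnaja4 is shown because the gene had the largest fall and its window holds 2 copies of the core of a cyclic AMP response element, the sequence that CREM and its relatives bind. Capitals mark CGTCA, the reverse complement of TGACG. The motif was chosen after this promoter had been read, and it was in 47.4% of member windows and 21.2% of all. The stretch covers 103 to 33 bases before the start.
Dnaja4, chr8:63981484-63981554, plus strand: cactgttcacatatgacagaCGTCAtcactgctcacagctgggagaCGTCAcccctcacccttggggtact
The full element TGACGTCA was in the windows of Cct4, Dnajc27, Dnajc30 and Hsp90ab1 (7.02% of member windows, 1.83% of all). At 4 d, Dnajc30 fell and Cct4 and Dnajc27 did not pass, while Hsp90ab1 did not pass in the fit without a block.

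Members known for expression in male germ cells split into 4 of 7 measured genes that fell with the run as a block (Dnajb3, Dnajb7, Dnajb13 and Hspb9) and 3 that did not pass, where 9.19% of all probe sets fell and 13.3% rose with the block. Without the block 0 rose and 0 fell (6.16% and 3.73% of all probe sets did), and 3 had an unadjusted p under 0.05 in limma (22.7% of all). Dnajb3, a J protein of spermatids, had 10409, 10733 and 12493 in the controls, 9955 and 12601 at 8 h, and 7549, 7854 and 8734 at 4 d. The 4 d arrays did not overlap the others. Its log2 difference was -0.48 (SE 0.13, adjusted p = 0.0544, and 0.000325 with the block), with -0.46, -0.45 and -0.51 in the 3 runs. Being close to the threshold, it also passed without a block under quantile normalization (0.0105), a minimum of 200 (0.0458), 1 probe set a gene (0.0400), only the groups compared (0.0489), and without 8 h 1 or 8 h 2 (0.0490 and 0.0496).

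Hspb9 is a small heat shock protein of germ cells. It gave 25309.7, 23587 and 40379 in the controls, 24616 and 35110.2 at 8 h, and 20060.0, 18238 and 26890.0 at 4 d. Groups overlapped, and the run 3 arrays were the brightest in each group. Within runs the log2 differences at 4 d were -0.33, -0.37 and -0.59, and the adjusted p was 0.323 without the block and 0.000476 with it. The difference of -0.43 shrank to -0.19 without control 3 and to -0.13 with quantile normalization.

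Dnajb7 had 12077, 9334 and 9649.7 in the controls, 10343 and 10725 at 8 h, and 6487, 6934 and 8705 at 4 d. No 4 d array reached a control array, but the size of the difference varied, with log2 -0.89, -0.43 and -0.15 in runs 1, 2 and 3 (adjusted p = 0.0711, and 0.0112 with the block). Without 4 d 3 it passed with no block (0.0419), and with quantile normalization the log2 difference was -0.31 in place of -0.49. Dnajb13, a protein of the radial spokes of sperm tails, had 3825, 4086 and 4423, then 4045 and 4202, then 3158, 3703 and 3001. Here too the 4 d arrays lay below all others, while 8 h lay within the control range (log2 -0.32, adjusted p = 0.144, and 0.0268 with the block).

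Hspa2, the Hsp70 that germ cells need to complete meiosis, did not pass with or without the block. Its brighter probe set had 14379, 13216 and 10541 in the controls, 13383 and 13381 at 8 h, and 12423, 13751 and 10078 at 4 d, which overlap. The log2 difference at 4 d was -0.07 with a 95% interval of -0.42 to 0.28, and that of its other probe set -0.04. Hspa4l, an Hsp110 protein, had 2874, 2774 and 3293 in the controls, 2666 and 3168 at 8 h and 3314, 3168 and 3234 at 4 d (log2 0.12, interval -0.15 to 0.39). Hspa1l, an Hsp70 of spermatids, was dim on these arrays, with 111, 157 and 49.6, then 39.2 and 52.4, then 32.2, 59.4 and 83.8. Its interval at 4 d ran from -1.41 to 0.28. It reached the minimum signal only on control arrays, so it entered the test through the group where it is high. This biases its differences from control downwards, and no conclusion was drawn from them.

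Markers of several cell types moved at 4 d as well. Over all probe sets 6.16% rose and 3.73% fell (13.3% and 9.19% with the block). Of 10 measured markers of elongating and elongated spermatids 5 fell (10 with the block), and their summed scaled signal ranged from 215120 to 321871 in the controls, from 222824 to 289000 at 8 h and from 146961 to 212474 at 4 d. Of 5 round spermatid markers 3 fell (5 with the block), from sums of 34780 to 39361 in the controls to 22720 to 25079 at 4 d. Of 4 spermatocyte markers 0 passed, also with the block, with sums of 12362 to 17235 in the controls and 13900 to 15974 at 4 d. Of 3 spermatogonium markers 0 passed (1 rose with the block). Of 9 leukocyte markers 6 rose (8 with the block), from sums of 2461 to 2849 in the controls to 8527 to 11451 at 4 d. Of 7 Leydig markers 1 rose (4 with the block), with sums of 14034 to 19713 and 20353 to 33118, and both red cell markers rose, with sums of 3018 to 4968 and 6396 to 11215. Of 6 Sertoli markers 0 passed (1 rose and 1 fell with the block, and 2 had an unadjusted p under 0.05 in limma), with sums of 16160 to 19134 and 22241 to 28996, most of it Clu. Of 5 peritubular markers 0 passed (1 rose and 1 fell with the block), and of 3 endothelial markers 0 passed (1 rose with the block). No marker of these lists was at 0 on every array. The part of these markers in the differences of the chaperone genes was not tested.

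**Figure D3:**
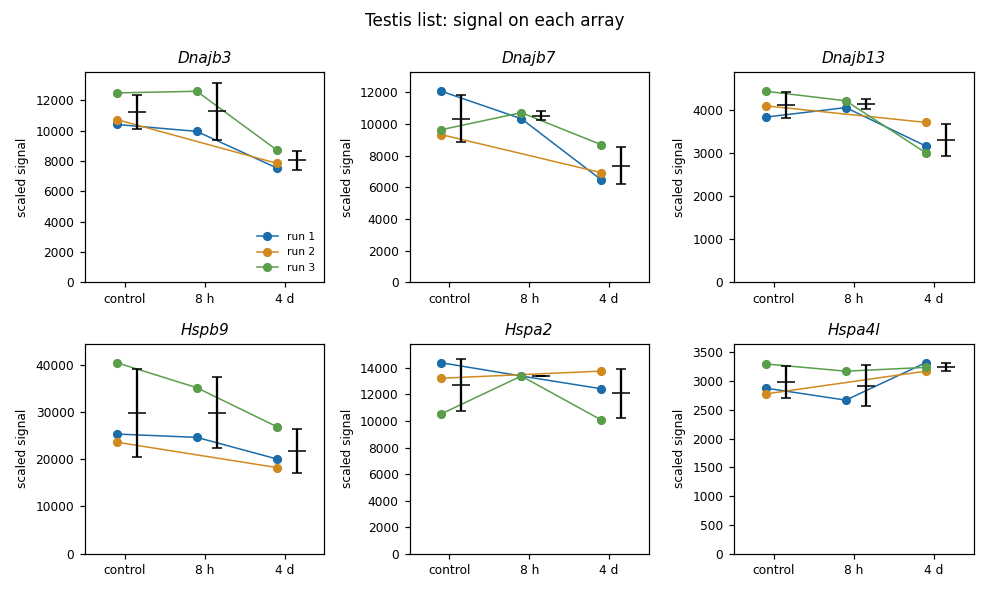
Scaled signal (y axis, linear, from 0) on each array for 6 genes of the testis list; lines join arrays of 1 hybridisation run, and black bars are mean and SD of the group (n = 3, 2 and 3). Within every run Dnajb3, Dnajb7, Dnajb13 and Hspb9 are lower at 4 d than in the control, while the lines of Hspa2 and Hspa4l cross or stay level.

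Of the 11 probe sets of the heat-inducible list 1 rose at 4 d and 0 fell, where 6.16% and 3.73% of all probe sets did. Of the 7 genes represented by their brightest probe set 0 passed. This list leaves out Hspd1 and Hspe1, which were placed in the mitochondrial list and rose. At an unadjusted p under 0.05 in limma there were 2 of the 11, against 22.7% of all. Hspa1a, an inducible Hsp70, had 351, 319.9 and 403 in the controls, 447 and 313 at 8 h, and 318, 276 and 275 at 4 d (log2 -0.27 at 4 d, adjusted p = 0.419). Hsph1, an Hsp110 protein that exchanges nucleotide on Hsp70, had 714, 722 and 796, then 732 and 715, then 838, 777 and 920.2 (log2 0.17, adjusted p = 0.486). Its groups overlapped.

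Hspb1, a small heat shock protein, had 839, 1408 and 918 in the controls, 801 and 685 at 8 h and 1021, 1212 and 975 at 4 d. Both 8 h arrays were below all controls (log2 -0.46, unadjusted p = 0.0642 in limma), and 4 d overlapped with them. Dnajb1, the main partner of inducible Hsp70, had 12518, 11832 and 15715 in the controls, 12196 and 13699.9 at 8 h and 10744, 10924 and 12389.6 at 4 d. It was lower at 4 d within each run (log2 -0.22, -0.11 and -0.34) and fell only with the block (log2 -0.23, adjusted p = 0.027, against 0.385 without it), while its other probe set did not pass (log2 -0.04). Without control 3 the difference shrank to -0.10, and with quantile normalization to -0.02. Dnajb4, a J protein close to Dnajb1, had 3406, 3813 and 4267, then 3679.8 and 3749, then 3359, 3521 and 3426 (log2 -0.15, adjusted p = 0.522).

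The probe set that rose in this list belonged to Hspb8, a small heat shock protein that works with Bag3 in the disposal of misfolded proteins. It had 34.6, 23.8 and 55.0 in the controls, 51.2 and 94.8 at 8 h and 119, 119 and 114 at 4 d. Only the 4 d arrays reached the minimum signal of 100, so the probe set was tested because of them, and its size rests on dim values (log2 1.12, SE 0.30, adjusted p = 0.0421, and 0.0151 with the block). The call was lost without control 1, control 2 or any 1 of the 4 d arrays (0.101 to 0.151), without run 2 (0.281), with quantile normalization and with a pseudocount of 8. The other Hspb8 probe set did not show it: 77.8, 129 and 65.0 in the controls, 102 and 81.8 at 8 h and 144, 79.0 and 67.4 at 4 d (log2 0.06).

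The heat shock element was also in the windows of Hsph1, Dnaja1 and Cct4. The Hsph1 stretch is shown because it lies just before the start of a gene of the heat-inducible list, which did not pass. It covers 56 to 4 bases before the start.
Hsph1, chr12:10427312-10427364, plus strand: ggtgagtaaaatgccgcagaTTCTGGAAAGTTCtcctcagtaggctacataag
In Dnaja1 (GAACTTTCCAGAA) and Cct4 (TTCTGGAAGGTTC) the matches began 10 and 26 bases after the start. Of the 5 genes with the element, Hspd1 and Hspe1 rose at 4 d and the other 3 did not pass, where 6.16% of all probe sets rose. The matches of Hspd1 and Hspe1 are the same bases read from either side, so they are not separate sites.

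Of 22 heat shock factors and cytosolic co-chaperones that are not members, 1 rose and 2 fell at 4 d (2 and 5 with the block). Over all probe sets 6.16% rose and 3.73% fell (13.3% and 9.19% with the block). Bag1 and Bag3, which release clients from Hsp70, fell by 0.93 (SE 0.16, adjusted p = 0.0055) and by 0.70 on the log2 scale (SE 0.15, adjusted p = 0.018). Stub1, a ubiquitin ligase that marks clients of Hsp70 and Hsp90, rose by a log2 of 0.64 (SE 0.14, adjusted p = 0.0172). Hsf1, the main heat shock factor, differed by a log2 of 0.03 (SE 0.20).

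Cytosolic Hsp90 rose at 4 d with the block and did not pass in the fit without it. Hsp90ab1 is the constitutive form. Its brighter probe set had 4798, 4491 and 6842 in the controls, 4578 and 5713 at 8 h, and 6275, 5649 and 7425 at 4 d, overlapping through the bright control of run 3 (log2 0.28, adjusted p = 0.422, and 0.0237 with the block). With quantile normalization and no block it passed (log2 0.46, adjusted p = 0.0317). Without control 3 the difference was also 0.46, and without control 2 or 4 d 3 it was 0.16 or 0.17, none of which passed. The other gave 4176, 3859 and 3747, then 3794 and 3638, then 4787, 4695 and 4588. There the 4 d arrays lay above all others, by a log2 of 0.26 (adjusted p = 0.183, and 0.0277 with the block), with 0.20, 0.28 and 0.29 in the 3 runs.

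Chaperones of the endoplasmic reticulum had small differences from control, and none passed. Of 10 listed genes, all measured, 0 rose and 0 fell at 4 d with or without the block. Over all probe sets 6.16% rose and 3.73% fell without it, and 13.3% and 9.19% with it. Of the 14 probe sets of these genes 0 had an unadjusted p under 0.05 in limma, against 22.7% of all. The log2 differences of the 10 genes ran from -0.07 to 0.19. Over the 14 probe sets the widest 95% interval bounds at 4 d were -0.73 and 0.75. Hspa5, the Hsp70 of this compartment, had 9034, 8297 and 12176 in the controls, 8767 and 11918 at 8 h, and 8599, 8342 and 12984 at 4 d, with the run 3 arrays the highest of each group. Its log2 difference at 4 d was 0.01, with a 95% interval of -0.46 to 0.48. Hsp90b1, the Hsp90 of this compartment, had 7649, 8605 and 5968, then 7334 and 7428, then 8069, 7711 and 6506 (log2 0.01, interval -0.33 to 0.36).

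Dnajc3, which binds misfolded proteins inside the compartment, came closest to a difference among these genes. It had 1684, 1433 and 1631 in the controls, 1426 and 1599.9 at 8 h and 1708, 1829 and 1866 at 4 d, where every 4 d array was above every control (log2 0.19, adjusted p = 0.422, and 0.21 with the block). The J proteins Dnajb11 (1543, 1414 and 2215, then 1351 and 1877, then 1731, 1806 and 2201) and Dnajb14 (189.7, 167 and 158, then 194 and 206, then 223, 167 and 134) overlapped between control and 4 d.

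Hspa5, Hsp90b1 and Dnajc3 were the 3 members whose windows held the endoplasmic reticulum stress element, CCAAT and CCACG with 9 bases of any kind between them on either strand, the site through which Atf6 acts (5.26% of member windows, 0.0657% of all). Their stretches are printed because these 3 genes are the standard readers of that response and none of them passed. Capitals mark the element.
Hspa5, chr3:38452963-38453001, plus strand: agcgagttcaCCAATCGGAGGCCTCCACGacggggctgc
Hsp90b1, chr7:23012337-23012479, minus strand: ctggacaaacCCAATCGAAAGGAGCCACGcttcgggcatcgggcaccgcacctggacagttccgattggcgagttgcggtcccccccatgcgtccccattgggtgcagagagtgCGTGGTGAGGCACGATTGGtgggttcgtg
Dnajc3, chr15:102432524-102432562, plus strand: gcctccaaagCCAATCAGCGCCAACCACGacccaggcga

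Among 18 measured genes of the endoplasmic reticulum and its stress response that are not members, 3 rose and 0 fell at 4 d (7 and 3 with the block). Over all probe sets 6.16% rose and 3.73% fell (13.3% and 9.19% with the block). P4hb, a protein disulfide isomerase that is also a subunit of collagen prolyl hydroxylase, rose by a log2 of 1.00 (SE 0.11, adjusted p = 0.000605). Serpinh1, a chaperone of collagen, rose by 1.01 (SE 0.25, adjusted p = 0.0297), and Atf6 by 0.61 (SE 0.16, adjusted p = 0.0402).

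The cytosolic chaperonin was bright in every group and no subunit passed without the block. Of 7 measured subunit genes 0 rose and 0 fell at 4 d, where 6.16% and 3.73% of all probe sets did. Of the 10 probe sets of these genes 0 had an unadjusted p under 0.05 in limma, against 22.7% of all. Cct4 had 14649, 14110.2 and 19155 in the controls, 14824 and 18095 at 8 h, and 14746, 13273 and 17141 at 4 d. Cct7 had 7476, 7541 and 9239.7, then 7363 and 9054, then 7723, 7633 and 8407. Both overlapped in all groups, with log2 differences at 4 d of -0.08 (95% interval -0.44 to 0.28) and -0.02 (-0.32 to 0.27).

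Cct5 had 13265, 13661 and 22799 in the controls, 14324 and 18669 at 8 h, and 11657, 12222 and 17146 at 4 d. It was lower at 4 d within each run (log2 -0.19, -0.16 and -0.41) and fell with the block (log2 -0.25, adjusted p = 0.0365, against 0.594 without it). Without control 3, the brightest array, its log2 difference at 4 d was 0.00072, and with quantile normalization -0.00015. Without control 1, 4 d 1 or 4 d 3 it was -0.39, -0.15 or -0.43. Its other probe set had a log2 difference of -0.17 (adjusted p = 0.116 with the block). Cct6a went the other way in both probe sets, by 0.25 and 0.27: the brighter had 1466, 1381 and 1803, then 1643 and 1711, then 1883, 1639.7 and 2007 (adjusted p = 0.339, and 0.081 with the block). Over the 10 probe sets the widest interval bounds at 4 d were -0.77 and 0.97 on the log2 scale. A 2.06-fold rise like that of Hspe1 lay outside the interval of every one. The smaller rise of Hspd1, a log2 of 0.87, lay below the highest upper bound and so was not outside every interval.

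Among 8 measured partners of the chaperonin that are not members, 1 rose at 4 d, where 6.16% of all probe sets did. Pdcl3, a phosducin-like protein that binds the ring, rose by a log2 of 0.81 (SE 0.18, adjusted p = 0.0205). Tcp1, the first subunit of the same ring under its own symbol, differed by -0.18 (SE 0.15, adjusted p = 0.557).

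**Figure D4:**
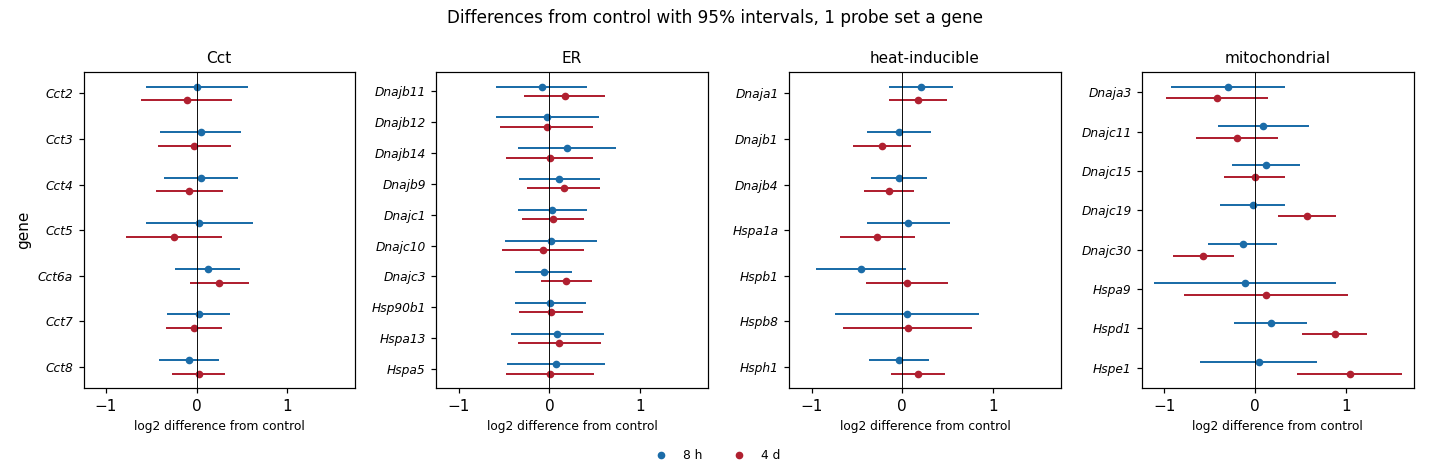
Log2 differences from control (x axis, points) with 95% intervals (lines) at 8 h in blue and at 4 d in red for the brightest probe set of each gene of the cytosolic chaperonin and of the endoplasmic reticulum, heat-inducible and mitochondrial lists. The 4 d intervals of Hspd1, Hspe1, Dnajc19 and Dnajc30 exclude 0, and those of the other 3 panels all include it; Hspb8 is shown by the probe set that did not rise.

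The remaining J proteins held 1 more rise and several falls that passed with the block. Over all J proteins, 2 genes rose and 3 fell of 37 at 4 d (2 and 10 with the block), with a median log2 difference of -0.03. The shares were 5.41% and 8.11% of genes, against 6.16% and 3.73% of all probe sets, and with the block 5.41% and 27.0%, against 13.3% and 9.19%. Dnajc5, the cysteine string protein of secretory vesicles, rose in its brightest probe set, from 568, 541 and 552 in the controls and 519 and 587 at 8 h to 766, 768 and 878 at 4 d. All 4 d arrays lay above all others, and 8 h overlapped the controls (log2 0.51, SE 0.13, adjusted p = 0.0375, and 0.0091 with the block). The call was lost without each of the 8 arrays in turn (adjusted p of up to 0.124), without run 2 (0.203), with quantile normalization (0.136), with no minimum signal and with only the groups compared (0.0509 and 0.0502). A further Dnajc5 probe set had 364, 484 and 183, then 446 and 235, then 508, 702 and 455, and rose with the block (log2 0.71, adjusted p = 0.0122, against 0.243), though without control 3 the difference was 0.35. The last one did not pass (log2 -0.16).

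With the block, Dnajc7, Dnajc4 and Dnajc21 were lower at 4 d. Dnajc7, which joins Hsp70 to Hsp90, had 3064, 2935 and 2555 in the controls, 2807 and 2745 at 8 h, and 2284, 2439 and 2104 at 4 d, all 3 below every other array (log2 -0.32, adjusted p = 0.142, and 0.0214 with the block). Its dim second probe set had a log2 of -0.87 (adjusted p = 0.207). Dnajc4 had 2456, 2096 and 2996, then 2157 and 2986, then 1841, 1808 and 2242 (log2 -0.34, adjusted p = 0.286, and 0.0205 with the block), and a log2 of -0.21 without control 3.

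Dnajc21, a J protein of ribosome assembly, had 1866, 2097 and 1064, then 1654 and 1427, then 1192, 1466 and 906 (log2 -0.46, adjusted p = 0.336, and 0.0207 with the block). Single arrays moved it: it was -0.75 and passed with no block without control 3 (0.0478), and was -0.27 without control 2 and -0.28 without 4 d 3. In Dnajc4 and Dnajc21 the groups overlapped and each run showed the difference. Among small heat shock proteins, Hspb7, known from muscle, had 654, 597 and 571, then 838 and 352, then 376, 310.5 and 408 (log2 -0.69, adjusted p = 0.145, and 0.0407 with the block), while its other probe set had -0.04. It also passed with no block without 8 h 1 or 8 h 2 (0.0286 and 0.0278) and with only the groups compared (0.0284). Hspb6 and Hspb3 did not pass (log2 0.03 and -0.32). Of 22 genes with several member probe sets, 15 had differences of 1 sign at 4 d.

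At 8 h no member had passed. In limma 0 of the 91 probe sets rose and 0 fell, without and with the run as a block, where 0.0657% of all probe sets tested passed (0.278% with the block, 0.268% higher and 0.0101% lower). At an unadjusted p under 0.05 there was 1 member, against 3.91% of all probe sets. That member was the dimmer probe set of Dnaja1, a cytosolic partner of Hsp70, with 756, 808 and 712 in the controls, 974 and 979 at 8 h, and 942, 925 and 985 at 4 d. Both treated groups lay above all controls (log2 0.35 at 8 h, SE 0.13, unadjusted p = 0.026, and 0.31 at 4 d, adjusted p = 0.148). The brighter one had 3814, 3501 and 4474, then 4148 and 4906, then 4109, 4211 and 4910.5, which overlap (log2 0.21 at 8 h and 0.17 at 4 d). Over the 91 probe sets the differences at 8 h ran from -0.87 (Dnajc7, dim probe set) to 0.58 (Hspb8), with a median of 0.00. Both 8 h arrays lay above all controls in 2 members and below in 3, where 7.32% and 7.62% of all probe sets did so. In the 4 lists of genes that are not members 0 passed at 8 h.

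Between 4 d and 8 h, Hspd1 was higher by a log2 of 0.70 (SE 0.18, adjusted p = 0.0459, and 0.000756 with the block) and Dnaja4 lower by 0.96 (SE 0.18, adjusted p = 0.0134), each 1 of 91 members, where 3.58% of all probe sets rose and 2.47% fell. This comparison shares the 4 d arrays with that against control. The Hspd1 call was lost without control 1, control 2, either 8 h array, 4 d 1 or 4 d 3 (adjusted p of 0.0667 to 0.216) and without run 2 (0.0617), and the Dnaja4 call without 8 h 2 (0.139) and without run 2 (0.0606). Hspe1 differed by a log2 of 1.00 (adjusted p = 0.0714, and 6.03e-05 with the block). With the block 7 were higher, namely Hspd1, Hspe1, Dnajc19, Dnajc5, both of Hsp90ab1 and Dnajc13, and 8 lower, namely Dnaja4, Dnajc18, Dnajc30, Dnajb3, Dnajb7, Dnajb13, Hspb9 and Dnajc21 (background 8.57% and 7.09%). Dnajc13, a J protein of endosomes, passed in this comparison alone. It had 513, 475 and 535 in the controls, 472 and 481 at 8 h and 672, 519 and 728 at 4 d (log2 0.48 with the block, adjusted p = 0.0439).

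In the controls the median scaled signal of the 91 probe sets averaged 1290.2 over the 3 arrays. Signals of different probe sets do not rank genes by level. Across arrays the least steady bright member was Dnajb6, with 6428, 1411 and 3880 in the controls, 2361 and 2804 at 8 h and 3626, 3125 and 1630 at 4 d (log2 -0.31 at 4 d, adjusted p = 0.776). Of the 57 member genes with a promoter entry, 10 (17.5%) had the start of another gene on the opposite strand within 1000 bases upstream, as in the pair of Hspd1 and Hspe1, against 11.3% of all genes.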

How the data were processed

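RNA of 8 whole-testis samples was hybridised to 1 array each. The deposited values are linear intensity values, 1 for each probe set, which the authors made with MAS 5.0, and GeneSpring 7.2 is also named, per the labels. Each array's deposited 2% trimmed mean was 250.1. Here each array was scaled to a trimmed mean of 500, and log2(signal + 32) was taken, so fold changes of dim genes are understated. The 57 control probe sets were left out, and 19785 of 31042 others reached a scaled signal of 100 (deposited 50) on 2 or more arrays and were tested. All 8 arrays entered 1 fit in limma 3.58.1 under R 4.3.3 (lmFit, eBayes with a trend, no block), with Benjamini-Hochberg adjustment over all tested and a threshold of 0.05. The fit was tested on simulated data with noise independent between arrays. That test held no run effect, so it does not cover how the fit behaves when arrays of a run deviate together. Scanner files other than array settings, and detection calls, were not used here.

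Titles gave the groups. The descriptions could not, since all 8 read normal testis. Same-run arrays of different groups deviated together from their group means (r of 0.353 to 0.507). The range for other runs (-0.476 to 0.246) is partly fixed by these values, since deviations cancel within a group. Control and 4 d arrays of 1 number were paired through the run, while 8 h 2 belonged to run 3. Values with the run as a block are given where they change a call. Symbols came from the platform annotation, and all 91 members matched RefSeq by gene ID. Promoters of 57 of 65 genes came from RefSeq (GRCr8). The files' probe sets have no coordinates here.

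The members and lists were chosen with earlier results of these data known. The rule for named genes gave values on every array for members past the threshold in any comparison, with or without the block, then for listed members in order of p, up to 30 genes. Hspa2, Hspa4l, Hspa5, Hspa9, Hsp90b1, Cct4, Cct7 and Dnajb6 are given beyond it, after their values were seen. A gene with several probe sets is represented by the one with the highest mean log2 signal. Alternatives covered scaling, pseudocount, signal minimum, block, variance trend, probe set choice and each array left out. Leaving out run 2 and the core of the cyclic AMP response element were chosen after seeing the data.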

Additional observations from a re-analysis of the deposited data

Results flagged for a closer look

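The effects at the 2 time points differed, by a test of the difference itself, in 2 members. Hspd1 differed between 4 d and 8 h by a log2 of 0.70 (adjusted p = 0.0459 in limma with Benjamini-Hochberg adjustment), after 0.17 at 8 h and 0.87 at 4 d against control. The brighter Dnaja4 probe set differed by -0.96 (adjusted p = 0.0134), after -0.02 at 8 h and -0.98 at 4 d. In both genes every 4 d array lay outside the range of the 8 h arrays. Those number only 2, and the share of all probe sets doing so was not counted, so this is no support. Neither call held with equal medians or without run 2. The dimmer Dnaja4 probe set did not pass in this comparison.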

How the results depend on the processing

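The counts of calls were small and moved with the processing. At 4 d against control 5 members rose and 4 fell (6.16% and 3.73% of all probe sets). With quantile normalization 3 rose and 4 fell (5.77% and 5.04% of all). With equal medians 0 rose and 1 fell (3.75% and 2.09%), and with the run as replicate block 8 and 14 (13.3% and 9.19%). Without a variance trend 2 rose and 2 fell, and without run 2 the counts were 1 and 0 (1.7% and 0.829% of all). Leaving out each array in turn gave 1 to 4 rises and 1 to 5 falls. At 4 d against 8 h 1 rose and 1 fell (3.58% and 2.47% of all probe sets), and 7 and 8 did with the block (8.57% and 7.09%). With quantile normalization 3 rose and 2 fell, with equal medians 0 and 0, and with a minimum of 200 it was 2 and 2. With 1 probe set a gene 4 rose and 2 fell, and without run 2 it was 0 and 0. There 2 rose with a larger pseudocount, and 0 rose with no minimum, with no trend, and with only the groups compared. Single arrays left out gave 0 to 3 rises and 1 to 2 falls. At 8 h 0 members passed under every alternative run. Over all probe sets 0.0657% passed at 8 h (0.278% with the block). Where no share is given beside a count, that over all probe sets was not counted. No conclusion about the members was drawn from such counts. Why the counts moved was not tested. The median difference at 8 h, 0.00085, was -0.019 with quantile normalization, 0.075 with equal medians, -0.015 with the block and -0.027 to 0.0022 without single arrays. That between 4 d and 8 h, -0.0065, was -0.12 with equal medians. The median control level was 1727 with a minimum of 200, which drops dim members. The heat shock element was in 17 member windows when 2 units sufficed (29.8%, against 15.9% of all promoters). Cct5 at 4 d, a log2 of -0.25, ran from -0.43 (without 4 d 3) to 0.00072 (without control 3). Dnaja4 and Hspd1 at 4 d each held under 18 of 19 alternatives.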
